A study of Mus musculus with 24 samples.

Results

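The naive-to-primed transition of mouse embryonic stem cells (mESCs) was measured in cells that received heme from outside while their own heme synthesis was blocked. Cells of EpiLC+SA+H (n = 4 libraries) were compared with cells of 2iL+SA+H (n = 4 libraries), which are 8 of the 24 RNA sequencing libraries of the series, and all gene symbols of the count table entered the comparison. The libraries were assigned by their labels alone. All of them come from the single mESC line ES-E14TG2a. Naive cells (2iL) grew on gelatin in N2B27 medium with leukemia inhibitory factor (LIF), 3 µM CHIR99021, which inhibits GSK3, and 1 µM PD0325901, which inhibits MEK. Cells in transition (EpiLC) were kept for 48 h on 15 µg/ml fibronectin with 12 ng/ml bFGF and 20 ng/ml activin. Both compared groups also held 0.5 mM succinylacetone (SA) and 10 µM hemin (H) for 48 h, so the comparison shows a change of state in a constant background of SA and hemin and not the effect of either agent. The other libraries used here are EpiLC against 2iL with neither agent, and EpiLC+SA against 2iL+SA with succinylacetone alone, with 4 libraries in each of these groups.

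In culture, the naive state is held by LIF and STAT3 signalling, Wnt signalling and a circuit of transcription factors that includes ESRRB, TFCP2L1, KLF2, KLF4 and NANOG. FGF and activin move cells to an epiblast-like state (EpiLC), in which that circuit is taken down and factors such as OTX2 and OCT6 come up together with the de novo DNA methyltransferases. Heme is made from glycine and succinyl-CoA, and succinylacetone inhibits the dehydratase ALAD, an early enzyme of the pathway. Hemin is the oxidized form of heme and can enter cells and supply heme without that enzyme.

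Reads were counted per gene, and levels are given as CPM, the count of a gene scaled to a library of standard size after TMM normalization. The 2iL+SA+H libraries held 4972669 to 8886121 counts (median 6572781), and the EpiLC+SA+H libraries 2131987 to 8465889 (median 6011469). The shallowest library of the comparison, EpiLC+SA+H replicate 1, stood apart from the other 7. The 3 shallow libraries of the series were this one, 2iL+SA replicate 3 and EpiLC replicate 3, with 1857964 to 2883740 counts. In a principal component analysis of the 8 libraries the groups separated on the first axis (47.7% of variance), while on the second (23.01%) EpiLC+SA+H replicate 1 lay at 88.2 and the other libraries of its group at -25.02 to -50.6. Results that rest on EpiLC+SA+H replicate 1 are given with and without it. Nothing in the labels says whether replicates were separate cultures, so p values measure the spread between these libraries, which may be technical. In bulk RNA, fewer cells of a type and less RNA per cell cannot be told apart.

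A total of 16067 of 23762 symbols passed the filter on low counts and were tested with edgeR's quasi-likelihood test. With SA and hemin on both sides, 1631 genes were higher in EpiLC+SA+H (10.2% of genes tested) and 1683 were lower (10.5%), together 20.6%, at an adjusted p under 0.05, of which 1282 and 1159 changed more than 2-fold. Every EpiLC+SA+H library lay above every 2iL+SA+H library for 1735 genes (10.8%), and below for 1974 genes (12.3%). The median log2 fold change over all genes tested was 0.01.

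The marker genes of both states passed the test, Otx2 and Pou3f1 upward and Klf2 and Esrrb downward. Otx2, which encodes a homeobox factor of the early post-implantation epiblast (chromosome 14, 48657677 to 48673819 of GRCm38), had 15.7, 18.2, 9.22 and 19.9 CPM in 2iL+SA+H replicates 1 to 4 and 492, 695, 356 and 348 CPM in EpiLC+SA+H replicates 1 to 4. All EpiLC+SA+H libraries were far above all 2iL+SA+H libraries, with a log2 fold change of 4.91 with a standard error of 0.38 and an edgeR adjusted p of 1.58e-09. Pou3f1, which encodes OCT6 (chromosome 4, 124656807 to 124660655), rose from 6.51, 4.04, 2.504 and 4.22 CPM to 520.5, 215, 82.5 and 167 CPM. The groups did not overlap, although the EpiLC+SA+H libraries themselves ranged over 6.31-fold, from replicate 3 at the bottom to replicate 1 at the top. The log2 fold change of Pou3f1 was 5.83 with a standard error of 0.54 and an edgeR adjusted p of 4.35e-08.

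Both naive markers fell without being lost. Klf2, a Krüppel-like factor gene of the naive circuit (chromosome 8, 72319033 to 72321656), went from 635, 625, 947 and 555 CPM to 139.9, 220.2, 419.7 and 292 CPM, a log2 fold change of -1.36 with a standard error of 0.37 and an edgeR adjusted p of 0.00886. Esrrb, which encodes an orphan nuclear receptor (chromosome 12, 86361117 to 86521628), had 378, 303, 355 and 252 CPM in 2iL+SA+H and 68.8, 99, 209 and 102 CPM in EpiLC+SA+H, a log2 fold change of -1.42 with a standard error of 0.36 and an edgeR adjusted p of 0.00535. Neither gene overlapped between the groups, and in both the highest EpiLC+SA+H library was replicate 3 and the lowest was replicate 1.

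**Figure D1:**
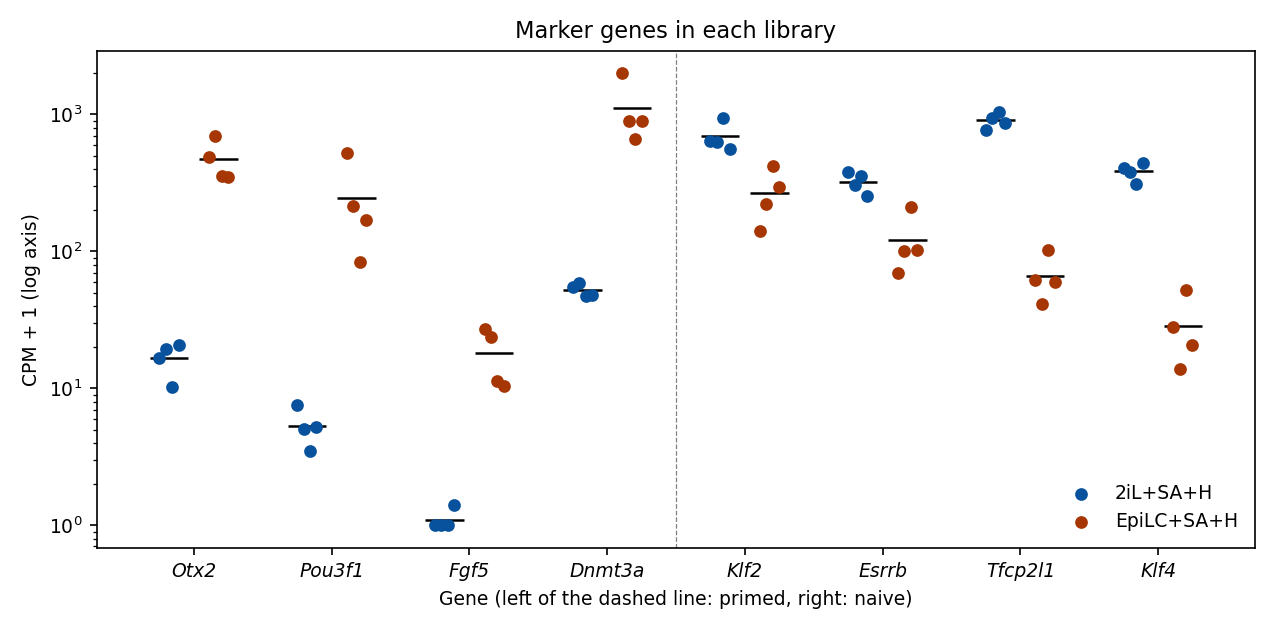
CPM + 1 on a log axis for 4 primed genes (left) and 4 naive genes (right), with 1 point per library and a black line at the mean of each group (2iL+SA+H blue, EpiLC+SA+H brown). Otx2 lies at 9.22 to 19.9 CPM in 2iL+SA+H and 348 to 695 CPM in EpiLC+SA+H, and for each of the 8 genes the groups do not overlap.

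Of 20 primed or formative genes, all of which passed the filter, 18 rose, 1 fell and 1 did not pass the test. Of all genes tested, 10.2% rose and 10.5% fell. The median log2 fold change was 3.22 beside 0.01 over all genes. Members near 0 in every 2iL group, such as Fgf5 and Fgf15, passed the filter through their EpiLC levels and could only come out higher. The direction of this count was therefore partly set by the filter. Fgf5, an FGF ligand gene that marks the epiblast after implantation (chromosome 5, 98254184 to 98277030), had 0, 0, 0 and 0.402 CPM in 2iL+SA+H and 26.1, 22.7, 10.2 and 9.47 CPM in EpiLC+SA+H. With 2 counts in all of 2iL+SA+H, the ratio of the pooled levels was 200.4 (95% interval 55.1 to 1661, from counting error alone), and the adjusted p was 5.90e-08 from edgeR. Sox4, an SRY-related factor gene, stood at 17.7, 20.2, 21.3 and 25.5 CPM and then at 206, 259.6, 203 and 176 CPM, a log2 fold change of 3.32 with a standard error of 0.28 and an edgeR adjusted p of 4.40e-09. Zic2, a zinc finger gene of the epiblast and the neural plate, rose from between 7.09 and 13.7 CPM to between 28.2 and 48.9 CPM (log2 fold change 2.00, edgeR adjusted p = 1.31e-05). Fgf15, which encodes a further FGF ligand, had 0 to 0.655 CPM in 2iL+SA+H and 3.68 to 19.4 CPM in EpiLC+SA+H (log2 fold change 5.11). The member that fell was Sall3, a spalt-like zinc finger gene, which went from 37.2, 33.4, 32.7 and 45.6 CPM to 6.78, 2.94, 12.7 and 16.7 CPM, a log2 fold change of -1.87 with a standard error of 0.37 and an edgeR adjusted p of 0.000575. Tead2, a TEA-domain factor gene, overlapped between the groups at 84.4 to 129.8 and 85.3 to 189 CPM and did not pass (log2 fold change 0.24, and -0.06 without EpiLC+SA+H replicate 1).

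Of 21 naive genes, all of which passed the filter, 11 fell (against 10.5% of all genes tested) and 10 did not pass the test. The median log2 fold change was -1.36. Tfcp2l1, which encodes a CP2-family factor downstream of LIF (chromosome 1, 118627945 to 118685168), fell from 772, 949, 1036 and 867 CPM to 61, 39.96, 102 and 59.02 CPM, a log2 fold change of -3.79 with a standard error of 0.34 and an edgeR adjusted p of 8.84e-09. Klf4, a Krüppel-like factor gene, went from 408, 379, 308 and 443 CPM to 27.1, 12.9, 50.9 and 19.8 CPM, a log2 fold change of -3.80 with a standard error of 0.72 and an edgeR adjusted p of 0.000522. The T-box gene Tbx3 had 407, 336, 361 and 332 CPM and then 27.6, 29.8, 78.4 and 38.1 CPM (log2 fold change -3.03). All 3 genes were separated between the groups by at least the range within either group, and each was highest among EpiLC+SA+H libraries in replicate 3. Nr5a2, a nuclear receptor gene, fell from between 164 and 254 CPM to between 25.3 and 82.9 CPM, and Nanog, a homeobox gene, fell from between 321 and 514 CPM to between 42.6 and 174 CPM (log2 fold changes -2.12 and -1.87). Zfp42, which encodes the zinc finger protein REX1, overlapped: it had 303, 238, 188 and 199 CPM in 2iL+SA+H and 97.8, 66.9, 225 and 106 CPM in EpiLC+SA+H, a log2 fold change of -0.90 with a standard error of 0.43 and an edgeR adjusted p of 0.156. Without EpiLC+SA+H replicate 3, in which it was highest, Zfp42 passed the test (-1.37, adjusted p = 0.0349).

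The 4 EpiLC+SA+H libraries differed in their levels of naive and primed genes. The mean log2 CPM over the naive genes was 4.82, 5.33, 6.26 and 5.82 in EpiLC+SA+H replicates 1 to 4, against 6.63 to 7.26 in 2iL+SA+H. Over the primed genes it was 6.28, 5.72, 5.26 and 5.65 in EpiLC+SA+H, against 2.80 to 3.09 in 2iL+SA+H. The library lowest in naive genes, replicate 1, was the highest in primed genes, and replicate 3 was the reverse. Sequencing depth was lowest in replicate 1 and differed little between replicates 2 and 3, and its part in the order of the libraries was not tested.

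**Figure D2:**
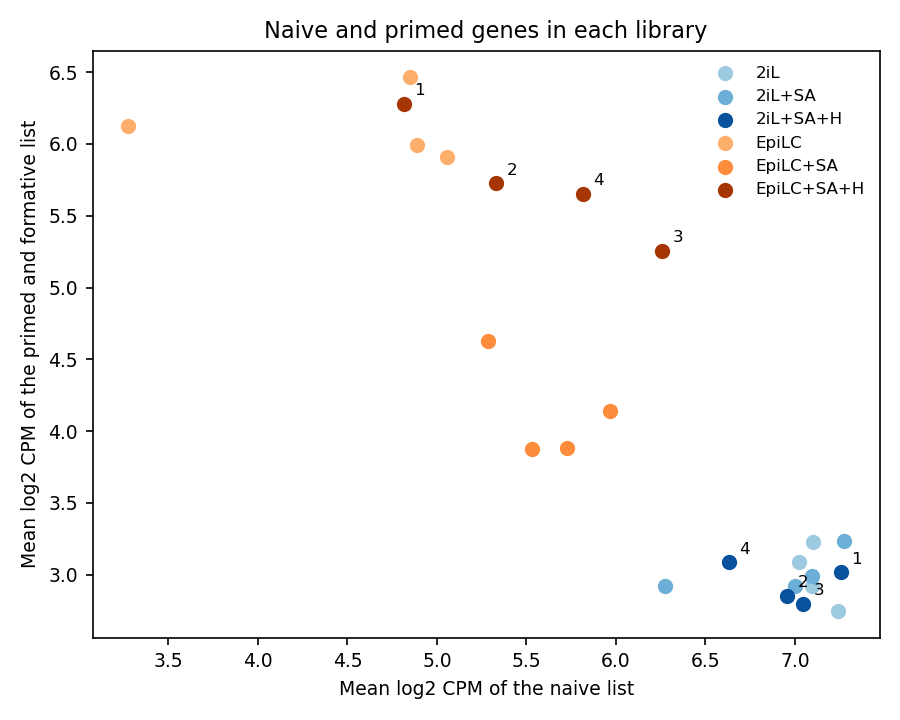
Mean log2 CPM of the 21 naive genes (horizontal axis) and of the 20 primed genes (vertical axis), with 1 point per library, coloured by group and numbered by replicate for 2iL+SA+H and EpiLC+SA+H. The EpiLC+SA+H libraries run from 4.82 and 6.28 (replicate 1) to 6.26 and 5.26 (replicate 3), and the 2iL+SA+H libraries cluster at 2.80 to 3.09 in primed genes.

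The position of each library was also read from all genes tested, on a line on which the mean of untreated 2iL is 0 and the mean of untreated EpiLC is 1. EpiLC+SA+H libraries lay at 0.935, 0.820, 0.714 and 0.712, a mean of 0.795 ± 0.106 (SD, n = 4), and EpiLC+SA libraries at a mean of 0.648 ± 0.0642 (SD, n = 4). The difference of 0.147 did not pass an exact 2-sided permutation test (p = 0.0857, 0.171 adjusted over the 2 comparisons, where 0.0286 is the smallest p that the 70 arrangements allow). Leaving out EpiLC+SA+H replicate 1 lowered the difference to 0.100. Each of the 3 shallow libraries lay highest in its own group, with 2iL+SA replicate 3 at 0.224 and EpiLC replicate 3 at 1.108. The part of sequencing depth in these positions was not tested. The naive ends of the transitions lay close together, with 2iL+SA+H at 0.0695 ± 0.0482 and 2iL+SA at 0.0713 ± 0.106 (SD, n = 4 each, difference -0.0018, exact permutation p = 1). Over the primed genes EpiLC+SA+H did not overlap with EpiLC+SA, which had mean log2 CPM of 3.88 to 4.63, while over the naive genes the libraries overlapped, with 5.29 to 5.97 in EpiLC+SA.

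**Figure D3:**
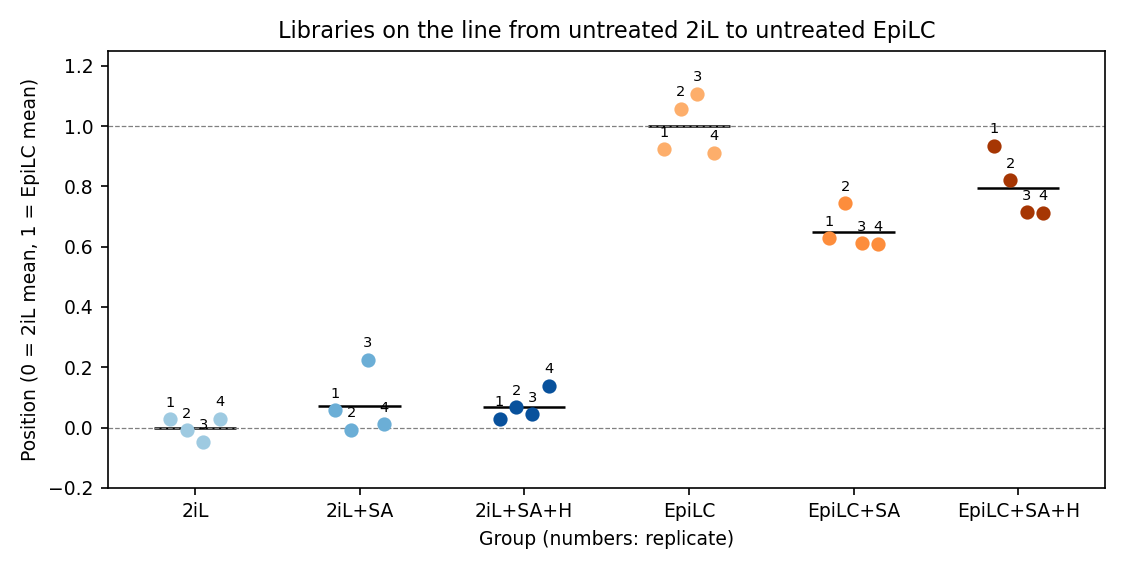
Position of each of the 24 libraries on the line from the mean of 2iL (0) to the mean of EpiLC (1), by group, with replicate numbers and a black line at each group mean. EpiLC+SA+H libraries lie between 0.712 and 0.935 and 2iL+SA+H libraries between 0.0298 and 0.138.

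Of 14 core pluripotency genes, 5 rose (Utf1, Lin28a, Dppa4, Dppa2 and Zfp281) and 1 fell (Sall4), against 10.2% and 10.5% of all genes tested. The median log2 fold change was 0.40. Utf1, which encodes a chromatin-associated factor (chromosome 7, 139943789 to 139945112), rose from 19.2, 7.64, 9.88 and 9.04 CPM to 413, 692, 456 and 574 CPM, a log2 fold change of 5.55 with a standard error of 0.34 and an edgeR adjusted p of 2.37e-11. Lin28a, whose RNA-binding product blocks let-7 maturation, rose from between 4.91 and 10.3 CPM to between 52.9 and 112 CPM, and Dppa4, a DNA-binding partner of DPPA2, from between 124 and 149 CPM to between 372 and 880.2 CPM. Their log2 fold changes were 3.35 and 2.03, and neither overlapped between the groups. Sall4, a spalt-like factor gene, fell from between 160.2 and 232 CPM to between 103 and 137 CPM (log2 fold change -0.70, edgeR adjusted p = 0.00244). Pou5f1, which encodes OCT4, had 6.84, 9.16, 20.6 and 8.44 CPM in 2iL+SA+H and 10.7, 5.55, 8.07 and 87.7 CPM in EpiLC+SA+H and did not pass (log2 fold change 1.35, and -0.52 without EpiLC+SA+H replicate 4). Pou5f1 has near-identical copies elsewhere in the genome and reads that mapped to several loci were discarded, so its level is uncertain.

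The media of the groups differ in the agents that act on FGF, activin, LIF and Wnt signalling, so a change of state and a direct response to the medium cannot be told apart in the next lists. Of 25 genes of FGF and ERK signalling 23 were tested, and 12 rose (against 10.2% of all genes tested). The median log2 fold change was 1.03, and 10 to 13 rose with any 1 library left out. Members near 0 in every 2iL group, such as Fgf5 and Spry4, passed the filter through their EpiLC levels and could only come out higher. The direction of this count was therefore partly set by the filter. Dusp4, a phosphatase gene induced by ERK that acts on MAP kinases, rose from 0.834, 0.436, 1.19 and 0.804 CPM to 36.3, 34.3, 25.6 and 47.03 CPM, a log2 fold change of 5.45 with a standard error of 0.58 and an edgeR adjusted p of 1.78e-07. Dusp6, which encodes the cytoplasmic ERK phosphatase, rose from 16.02, 8.18, 6.59 and 7.43 CPM to 34.9, 151, 111 and 157 CPM, a log2 fold change of 3.58 with a standard error of 0.60 and an edgeR adjusted p of 0.000122. Its groups did not overlap, but replicate 1 of EpiLC+SA+H was far below the other 3. Spry4, a feedback inhibitor gene of receptor tyrosine kinases, had 0 to 0.667 CPM in 2iL+SA+H and 7.01 to 22.4 CPM in EpiLC+SA+H (log2 fold change 5.96).

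Nodal and activin signal through SMAD2 and SMAD3, and the pathway restrains itself through LEFTY proteins and SnoN. Of 24 genes of the pathway 21 were tested, of which 6 rose (4 to 6 with any 1 library left out) and 3 fell, with a median log2 fold change of 0.06. Over all genes tested, 10.2% rose and 10.5% fell. Lefty1, a secreted inhibitor of Nodal and a target of the pathway (chromosome 1, 180935022 to 180938400), rose from 7.51, 1.75, 6.19 and 2.41 CPM to 138, 87.3, 105 and 29.6 CPM, a log2 fold change of 4.32 with a standard error of 0.80 and an edgeR adjusted p of 0.000397. Skil, which encodes the SMAD corepressor SnoN, rose from 31.03, 36.1, 58.6 and 38.8 CPM to 127, 192, 117 and 188 CPM, a log2 fold change of 1.92 with a standard error of 0.23 and an edgeR adjusted p of 6.61e-07. For both genes every EpiLC+SA+H library was above every 2iL+SA+H library. The ligand gene Nodal itself did not pass, at 64.1, 58.8, 64.8 and 55.7 CPM in 2iL+SA+H and 69.2, 65.2, 96.8 and 64.4 CPM in EpiLC+SA+H (log2 fold change 0.28). Pcsk6, which encodes a convertase that cleaves the Nodal precursor, fell from between 91.2 and 102 CPM to between 16.8 and 46.1 CPM (log2 fold change -1.42). The other genes that fell were Furin and Pmepa1, which encode a second convertase and a feedback inhibitor of SMAD signalling. Without 2iL+SA+H replicate 1, 2 or 4, or EpiLC+SA+H replicate 2 or 4, 1 gene of the list fell.

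Among 15 genes of LIF and STAT3 signalling 14 were tested, and 6 fell (against 10.5% of all genes tested), with a median log2 fold change of -0.42. Among those that fell was Tfcp2l1, which is also counted in the naive list. Stat3, the transcription factor downstream of LIF (chromosome 11, 100885098 to 100939540), fell from 166, 165, 200.3 and 156 CPM to 59.6, 40.6, 72.6 and 52.6 CPM, a log2 fold change of -1.61 with a standard error of 0.22 and an edgeR adjusted p of 6.65e-06. Its feedback inhibitor gene Socs3 fell from between 37.97 and 159 CPM to between 7.29 and 13.2 CPM, and Bcl3, an IκB-family gene, from 69.1, 76.8, 78.01 and 102 CPM to 4.84, 1.14, 5.28 and 1.89 CPM (log2 fold changes -3.22 and -4.74). The groups did not overlap for any of the 3 genes. Of 18 Wnt targets and TCF/LEF genes 15 were tested, of which 3 fell (Cdx1, Sp5 and Axin2) and 1 rose (Lef1). Of all genes tested 10.5% fell and 10.2% rose. Cdx1, a caudal homeobox gene, fell from 33.03, 47.6, 29.4 and 29.5 CPM to 1.45, 0, 0.776 and 0.947 CPM, a log2 fold change of -5.59 with a standard error of 0.58 and an edgeR adjusted p of 1.17e-07. Sp5, a zinc finger repressor gene, had 55.6, 13.7, 6.59 and 6.03 CPM in 2iL+SA+H, with replicate 1 well above the rest, and 0.968, 1.14, 0.621 and 0 CPM in EpiLC+SA+H (log2 fold change -5.11). Lef1, which encodes a Wnt effector that is also a primed gene, rose from between 2.95 and 10.5 CPM to between 29.6 and 149 CPM (log2 fold change 3.55). Axin2, a negative regulator of the pathway, had a log2 fold change of -1.03 (edgeR adjusted p = 0.0139), which no longer passed without 2iL+SA+H replicate 1 or EpiLC+SA+H replicate 2 (-0.91 to -0.86, adjusted p = 0.0505 to 0.0654). Without the 3 shallow libraries 5 Wnt genes fell, and without 2iL+SA+H replicate 1, 2 rose.

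Counts in the BMP and Hedgehog lists were at or below the share of all genes called, and in the Notch list 4 of 14 genes passed, against 20.6% of all genes tested. Among 14 genes tested of BMP signalling, Bmp4 rose from between 2.21 and 15.5 CPM to between 18.2 and 49.9 CPM and Bmp7 fell from between 8.18 and 16.6 CPM to between 1.94 and 6.63 CPM (log2 fold changes 2.21 and -1.60). Without 2iL+SA+H replicate 2 or 4, or EpiLC+SA+H replicate 3, 2 BMP genes fell. Of 14 Notch genes tested, 3 rose (Dll1, Rbpj and Jag2) and 1 fell (Hes1). Dll1, a Notch ligand gene, had 0 to 0.804 CPM in 2iL+SA+H and 2.42 to 7.79 CPM in EpiLC+SA+H, and Hes1, a repressor gene downstream of Notch, had 199, 110.3, 221 and 55.05 CPM and 18.9, 38.8, 61.1 and 31.4 CPM (log2 fold changes 3.42 and -1.94). The groups overlapped for Hes1, since 2iL+SA+H replicate 4 was below EpiLC+SA+H replicate 3. Jag2 no longer passed without 2iL+SA+H replicate 1 or 4 or EpiLC+SA+H replicate 2 or 3 (1.16 to 1.21, adjusted p = 0.0936 to 0.108). Of 14 Hedgehog genes tested, Hhip, which encodes a decoy receptor of the ligands, fell from 1.67, 3.05, 5.403 and 3.01 CPM to 0, 0, 0.776 and 0 CPM (log2 fold change -3.84, and -7.36 without EpiLC+SA+H replicate 3, the library of its group with counts).

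Genes of DNA methylation changed chiefly at the de novo enzymes. Of 11 genes, 4 rose (Dnmt3a, Dnmt3l, Dnmt3b and Uhrf2) and 1 fell (Uhrf1), against 10.2% and 10.5% of all genes tested. The median log2 fold change was 0.37. Dnmt3a, a de novo methyltransferase gene (chromosome 12, 3806007 to 3914443), rose from 53.7, 57.8, 45.99 and 47.4 CPM to 1997, 894, 662 and 897 CPM, a log2 fold change of 4.44 with a standard error of 0.28 and an edgeR adjusted p of 2.37e-11. Dnmt3l, whose product is a catalytically inactive cofactor of the DNMT3 enzymes, rose from 7.51, 1.85, 4.88 and 2.21 CPM to 329, 235, 207 and 269 CPM, a log2 fold change of 5.99 with a standard error of 0.50 and an edgeR adjusted p of 6.51e-09. Dnmt3b had 49.7, 24.8, 22.4 and 23.7 CPM and then 497, 675, 133 and 344 CPM, with EpiLC+SA+H replicate 3 the lowest of its group (log2 fold change 3.77). All libraries of EpiLC+SA+H were above all of 2iL+SA+H for the 3 genes. Uhrf1, which brings the maintenance enzyme to replicated DNA, fell from between 246 and 313 CPM to between 132 and 188 CPM (log2 fold change -0.73, edgeR adjusted p = 0.0129).

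Of 17 germline genes, most of them genes of meiosis, spermatogenesis or the piRNA pathway, 11 rose (against 10.2% of all genes tested) and 6 did not pass, with a median log2 fold change of 1.88 (10 or 11 rose with any 1 library left out). Mael, a gene of the piRNA pathway that silences transposons, rose from 4.17, 5.13, 4.74 and 6.43 CPM to 31.95, 59.9, 62.4 and 75.5 CPM, a log2 fold change of 3.50 with a standard error of 0.36 and an edgeR adjusted p of 7.52e-08. Slc25a31, which encodes the testis ADP/ATP carrier, went from between 0.603 and 3.27 CPM to between 7.75 and 13.8 CPM, Mov10l1, an RNA helicase gene of the piRNA pathway, from between 3.504 and 6.87 CPM to between 13.6 and 37.5 CPM, and Taf7l, a TFIID subunit gene of spermatogenesis, from between 1.502 and 5.53 CPM to between 12.8 and 34.1 CPM (log2 fold changes 2.62, 1.98 and 2.48). None of the 4 genes overlapped between the groups. Of 21 imprinted genes tested, 10 rose (7 to 10 with any 1 library left out) and 3 fell, against 10.2% and 10.5% of all genes tested. The median log2 fold change was 0.63. Snrpn, a paternally expressed splicing factor gene, rose from 42.7, 49.6, 39.4 and 47.4 CPM to 229, 235, 175 and 159 CPM, a log2 fold change of 2.15 with a standard error of 0.19 and an edgeR adjusted p of 7.44e-09. Peg10, a paternally expressed gene derived from a retrotransposon, rose from 5.34, 4.91, 3.82 and 2.81 CPM to 97.3, 60.7, 49.3 and 134 CPM, a log2 fold change of 4.32 with a standard error of 0.44 and an edgeR adjusted p of 1.17e-07. Cdkn1c, which encodes the cyclin-dependent kinase inhibitor p57, rose from between 5.67 and 14.6 CPM to between 44.5 and 83.7 CPM. H19, a maternally expressed noncoding RNA, was counted in 1 library of 2iL+SA+H, at 0.545 CPM, and stood at 10.2, 3.43, 3.41 and 12.7 CPM in EpiLC+SA+H (log2 fold change 5.26, and 8.49 without that library). The 3 that fell were Mirg, Rian and Plagl1, of which Mirg and Rian are noncoding RNAs of the Dlk1-Meg3 region and Plagl1 encodes a zinc finger factor. Uncertainty is added by overlapping and antisense transcripts at imprinted loci, since the strand setting of the count is not given in the sources used here.

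Some naive mESCs pass through a state that expresses genes of the 2-cell embryo. Of 19 such genes 10 were tested, and 7 fell (against 10.5% of all genes tested), with a median log2 fold change of -2.70 (4 at a minimum count of 20, where fewer were tested). Members near 0 in every EpiLC group, such as Tmem92, passed the filter through their naive levels and could only come out lower. The direction of this count was therefore partly set by the filter. Zscan4c, a zinc finger gene of that state, fell from 10.3, 14.2, 7.25 and 6.63 CPM to 0.484, 0, 1.55 and 1.052 CPM, a log2 fold change of -3.50 with a standard error of 0.60 and an edgeR adjusted p of 0.0001102. Tmem92, a membrane protein gene, fell from 7.01, 12.4, 5.403 and 3.62 CPM to 0, 1.305, 0 and 0.316 CPM (log2 fold change -3.92), and Gm8300 fell from between 10.7 and 35.3 CPM to between 0.736 and 3.26 CPM (log2 fold change -3.34). The groups did not overlap for any of them. Zscan4 and Usp17l genes are near-identical copies and reads of several loci were discarded, so their levels are uncertain.

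The largest changes with 20 CPM or more and no overlap between the groups were in genes of varied roles. Car4, a membrane carbonic anhydrase gene (chromosome 11, 84957786 to 84966044), had 0, 0, 0.132 and 0.402 CPM in 2iL+SA+H and 44.5, 42.2, 14.1 and 22.6 CPM in EpiLC+SA+H. With 3 counts in all of 2iL+SA+H the ratio of pooled levels was 251 (95% interval 85.7 to 1223, from counting error alone), and the adjusted p was 1.93e-08 from edgeR. Esrp1, an epithelial splicing regulator gene, rose from 0.501, 0.327, 0.659 and 0.201 CPM to 28.1, 46.2, 15.1 and 18.1 CPM, a log2 fold change of 5.89 with a standard error of 0.64 and an edgeR adjusted p of 2.43e-07. Arhgef28, a guanine nucleotide exchange factor gene, rose from between 0.201 and 0.395 CPM to between 12.5 and 30.99 CPM, and Enox1, which encodes an NADH oxidase of the cell surface, from between 0.201 and 1.32 CPM to between 12.6 and 46.4 CPM (log2 fold changes 5.93 and 5.56). Wt1, a zinc finger gene of kidney and gonad development, had 0.834, 0.218, 0 and 0.603 CPM and then 36.3, 12.9, 4.19 and 29.1 CPM (log2 fold change 5.69). Enpp2, which encodes autotaxin, had 0, 0.436, 0 and 0.402 CPM in 2iL+SA+H and 5.81, 64.1, 8.38 and 2.84 CPM in EpiLC+SA+H, where replicate 2 was far above the other 3 (log2 fold change 6.46). The other genes of this rule that rose were Dnmt3l, Pou3f1, Utf1 and Dusp4.

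On the naive side, Spic, an ETS-family factor gene (chromosome 10, 88674772 to 88685015), fell from 43.7, 44.9, 21.1 and 36.6 CPM to 0.968, 0.163, 0.776 and 0.526 CPM, a log2 fold change of -6.02 with a standard error of 0.51 and an edgeR adjusted p of 3.96e-09. Tlx2, a homeobox gene, fell from 21.7, 30.2, 7.38 and 34.8 CPM to 0, 0, 0 and 0.2104 CPM, with 2 counts in all of EpiLC+SA+H and a ratio of pooled levels, 2iL+SA+H over EpiLC+SA+H, of 277 (95% interval 76.3 to 2292, from counting error alone). Trpm1, a cation channel gene, went from between 13.9 and 39.9 CPM to between 0.2104 and 0.968 CPM, and Lrrc15, a leucine-rich repeat membrane protein gene, from between 17.5 and 25.96 CPM to between 0.105 and 1.45 CPM. Their log2 fold changes were -5.66 and -5.50, and the libraries of EpiLC+SA+H were all near the lower limit of counting. Rasgef1a, a Ras exchange factor gene, Dmgdh, which encodes dimethylglycine dehydrogenase, and Ly6a, the gene of the surface antigen SCA-1, had log2 fold changes of -5.08, -4.93 and -4.84. Cdx1, Sp5 and Bcl3 complete this group.

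Of 27 genes of adhesion and matrix, 9 rose and 4 fell, against 10.2% and 10.5% of all genes tested. The median log2 fold change was 0.22. Without 2iL+SA+H replicate 4, 5 rose, and without 2iL+SA+H replicate 3, 2 fell. Epcam, an epithelial adhesion gene (chromosome 17, 87635979 to 87651129), rose from 30.9, 31.96, 36.8 and 27.3 CPM to 305, 349, 271 and 303 CPM, a log2 fold change of 3.27 with a standard error of 0.20 and an edgeR adjusted p of 2.37e-11. Lama1, a laminin chain gene of basement membranes (chromosome 17, 67697259 to 67822647), fell from 54.6, 59.02, 56 and 53.04 CPM to 3.39, 4.73, 6.36 and 3.47 CPM, a log2 fold change of -3.60 with a standard error of 0.25 and an edgeR adjusted p of 1.24e-10. Both genes varied little within a group. Krt18, a keratin gene, rose from between 1.17 and 3.29 CPM to between 14.1 and 48.3 CPM and Podxl, a sialomucin gene, from between 2.41 and 6.34 CPM to between 10.7 and 53.5 CPM (log2 fold changes 3.94 and 2.51).

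Among 22 genes of glycolysis, 4 rose and 5 fell, against 10.2% and 10.5% of all genes tested. The median log2 fold change was 0.22, and 7 rose without 2iL+SA+H replicate 3. Pdk1, which encodes a kinase that turns off pyruvate dehydrogenase (chromosome 2, 71873224 to 71903858), rose from 21.9, 11.8, 33.5 and 10.8 CPM to 189, 195, 182 and 283 CPM, a log2 fold change of 3.44 with a standard error of 0.32 and an edgeR adjusted p of 1.93e-08. Slc16a3, which encodes the lactate exporter MCT4 (chromosome 11, 120948480 to 120960868), rose from 18.5, 12.9, 83.1 and 15.5 CPM to 443, 168, 112 and 141 CPM, a log2 fold change of 2.72 with a standard error of 0.52 and an edgeR adjusted p of 0.000459. The groups did not overlap, but 2iL+SA+H replicate 3 and EpiLC+SA+H replicate 1 were each far above the rest of their group. The other genes that rose were Pfkm and Pfkl, which encode phosphofructokinase subunits. Hk2 and Hk1, the hexokinase genes, fell from between 458 and 549 CPM to between 124 and 190.3 CPM and from between 157 and 237 CPM to between 56.3 and 76.01 CPM (log2 fold changes -1.68 and -1.67). The 3 others that fell were Slc2a3, a glucose carrier gene, Ldhb, a lactate dehydrogenase subunit gene, and Pfkp, the third phosphofructokinase gene.

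Slc16a3 was the glycolysis gene with the most matches to the core of the hypoxia response element, ACGTGC, searched on both strands of the RefSeq promoter (GRCm38.p6, 250 bases before to 50 after the start). The promoter is shown because 2 matches, in capitals, lie close together near its start. It lies at chr11:120948817-120949116 on the plus strand.
Slc16a3: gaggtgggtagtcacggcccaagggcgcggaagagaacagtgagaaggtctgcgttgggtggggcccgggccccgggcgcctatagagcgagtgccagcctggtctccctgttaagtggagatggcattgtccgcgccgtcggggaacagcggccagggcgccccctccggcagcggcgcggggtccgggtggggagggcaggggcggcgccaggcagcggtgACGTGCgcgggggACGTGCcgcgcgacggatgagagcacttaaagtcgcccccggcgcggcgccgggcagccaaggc
The motif occurs in 1943 of 32851 promoters of this length (5.91%). Of 21 glycolysis genes that were matched by symbol, 7 had it in any of their promoters. The list count is of genes and the share of all is of promoters, so they are not like for like. Of these 7 genes Slc16a3 rose, Hk1 fell, and Slc2a1, Gapdh, Pgk1, Pgam1 and Ldha did not pass the test. A match describes the letters of the window and does not show that a factor binds there.

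Of 20 genes of the TCA cycle, 4 fell (Idh2, Slc25a10, Mdh1 and Sucla2) and none rose, against 10.5% and 10.2% of all genes tested, with a median log2 fold change of -0.10. Idh2, the mitochondrial isocitrate dehydrogenase gene, fell from 173, 173, 197 and 192 CPM to 74.1, 79.6, 125 and 93.3 CPM, a log2 fold change of -0.98 with a standard error of 0.17 and an edgeR adjusted p of 0.000176, and the groups did not overlap. Mdh1 no longer passed without EpiLC+SA+H replicate 2 or 3 (-0.54 to -0.50, adjusted p = 0.0507 to 0.0595), and Sucla2 without 2iL+SA+H replicate 1 or 2 or EpiLC+SA+H replicate 1 or 2 (-0.64 to -0.49, adjusted p = 0.0668 to 0.0986), so that 2 fell without EpiLC+SA+H replicate 2. Among 42 nuclear genes of the respiratory chain none rose and 1 fell, a share below that of all genes in both directions. This was Cox6a1, a subunit gene of cytochrome oxidase, which fell from between 533 and 621 CPM to between 376 and 435 CPM, and the median log2 fold change was -0.20. Its adjusted p was 0.0173 from edgeR and 0.0504 without EpiLC+SA+H replicate 4, and 8 of the 42 fell without the 3 shallow libraries. Of 22 genes of branched-chain amino acid breakdown, 1 fell and 1 rose. Bcat1, the cytosolic transaminase gene, fell from 367, 388, 383 and 366 CPM to 156, 94.3, 142 and 123 CPM, a log2 fold change of -1.55 with a standard error of 0.16 and an edgeR adjusted p of 6.70e-08. Dbt, a subunit gene of the branched-chain keto acid dehydrogenase, rose (edgeR adjusted p = 0.0214) but no longer passed without 2iL+SA+H replicate 1, 2 or 3 or EpiLC+SA+H replicate 2 (0.45 to 0.50, adjusted p = 0.0528 to 0.0717). Of 19 glutathione genes tested, 4 rose (Gpx7, Gstm5, Gpx4 and Gstt2) and 2 fell (Gss and Gpx1), against 10.2% and 10.5% of all genes tested. Gpx7, a glutathione peroxidase gene of the endoplasmic reticulum, rose from between 13.8 and 22.5 CPM to between 32.6 and 46.5 CPM, and Gss, which encodes glutathione synthetase, fell from between 39.1 and 59.7 CPM to between 12.6 and 19.9 CPM (log2 fold changes 1.22 and -1.65). Leaving out 2iL+SA+H replicate 1, 2 or 4 or EpiLC+SA+H replicate 2 or 4 brought the count of those that rose to 1 or 2. Of 22 genes of cholesterol synthesis 2 rose, of which Lss, the lanosterol synthase gene, had a log2 fold change of 0.81 that fell short of the threshold in 6 of 8 fits with 1 library left out (0.53 to 0.84, adjusted p = 0.0582 to 0.211, the lowest value without EpiLC+SA+H replicate 4). With any 1 library left out, 1 to 4 genes of this list rose.

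Since heme was blocked and resupplied in both groups, genes of heme and iron handling were read for differences between the states. Heme is made in the mitochondria and cytosol by the enzymes from ALAS1 to FECH, and of 8 enzyme genes tested 0 passed edgeR's test (0 also by DESeq2, and 0 before adjustment at 0.05), with a median log2 fold change of -0.33. Alad, the gene of the enzyme that SA inhibits (chromosome 4, 62509169 to 62519918), had 31.03, 28.04, 18.3 and 29.7 CPM in 2iL+SA+H and 26.1, 23.98, 16.4 and 15.4 CPM in EpiLC+SA+H, with overlap between the groups and a log2 fold change of -0.40 with a standard error of 0.22 and an edgeR adjusted p of 0.211. Of 9 genes tested of heme and porphyrin transport 2 passed, both higher, against 20.6% of all genes tested. Abcg2, which encodes an exporter of porphyrins, rose from 32.03, 24.4, 35.6 and 26.7 CPM to 69.7, 80.2, 86.3 and 66.3 CPM, a log2 fold change of 1.35 with a standard error of 0.21 and an edgeR adjusted p of 3.27e-05. The other was Pgrmc2, a heme-binding protein gene, with 111, 128, 87.8 and 143 CPM and 383, 145, 155 and 160.0 CPM and a log2 fold change of 0.84 (edgeR adjusted p = 0.0113). That call rested on EpiLC+SA+H replicate 1, without which the value was 0.40 (adjusted p = 0.1102), and it was also lost without 2iL+SA+H replicate 3 (0.73, adjusted p = 0.0515).

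BACH1 is a repressor that heme removes from its targets, and NRF2, the product of Nfe2l2, activates many of the same genes. Of 17 such genes, 3 rose (Gclm, Slc40a1 and Gclc) and 1 fell (Nfe2l2), against 10.2% and 10.5% of all genes tested. The median log2 fold change was 0.20, and 5 rose without the 3 shallow libraries. Gclm, a subunit gene of the enzyme that starts glutathione synthesis, rose from 109, 95.3, 84.9 and 126 CPM to 415, 284, 207 and 169 CPM, a log2 fold change of 1.37 with a standard error of 0.25 and an edgeR adjusted p of 0.000234. Hmox1, which encodes the inducible heme oxygenase, had 19.5, 17.8, 11.9 and 23.7 CPM in 2iL+SA+H and 94.4, 11.6, 13.2 and 11.8 CPM in EpiLC+SA+H. It was high in EpiLC+SA+H replicate 1 and within or below the range of 2iL+SA+H in the other 3, so that its log2 fold change of 0.76 became -0.56 without that library and did not pass either way. Bach1 itself overlapped between the groups, with 33.5 to 57.5 and 29.7 to 51.98 CPM. Nfe2l2 fell from between 184 and 247 CPM to between 117 and 159 CPM (log2 fold change -0.69), and Gclc, the catalytic subunit gene, had a log2 fold change of 0.68 that no longer passed without 2iL+SA+H replicate 2, 3 or 4 or EpiLC+SA+H replicate 2 (0.60 to 0.64, adjusted p = 0.0515 to 0.0649).

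Among 15 genes of iron handling, 2 rose and 1 fell, with a median log2 fold change of 0.27 (5 rose without the 3 shallow libraries). Slc39a14, which encodes the iron and zinc importer ZIP14 (chromosome 14, 70303469 to 70351425), rose from 0.667, 0.655, 1.58 and 0.603 CPM to 11.1, 23.5, 21.3 and 22.2 CPM, a log2 fold change of 4.44 with a standard error of 0.45 and an edgeR adjusted p of 7.13e-08. Slc40a1, the gene of the iron exporter ferroportin, rose from 1.502, 0.764, 1.98 and 1.21 CPM to 15.98, 26.1, 4.34 and 4.63 CPM, a log2 fold change of 3.20 with a standard error of 0.61 and an edgeR adjusted p of 0.000337. Tfrc, the transferrin receptor gene (chromosome 16, 32608920 to 32632794), fell from 310.5, 279, 638 and 182 CPM to 83.3, 97.7, 71.8 and 109 CPM, a log2 fold change of -1.96 with a standard error of 0.32 and an edgeR adjusted p of 7.97e-05. None of the 3 overlapped between the groups, and 2iL+SA+H replicate 3 was far above the rest of its group for Tfrc.

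The integrated stress response joins kinases that phosphorylate eIF2α, including the heme-regulated kinase EIF2AK1, to the factor ATF4 and its targets. Of 28 genes of this response, 10 were lower in EpiLC+SA+H (against 10.5% of all genes tested) and 18 did not pass. The median log2 fold change was -0.65. The count depended on single libraries, and was 5 without 2iL+SA+H replicate 4, 4 without EpiLC+SA+H replicate 2 and 6 without EpiLC+SA+H replicate 4. Asns, the asparagine synthetase gene (chromosome 6, 7675169 to 7693254), fell from 443, 471, 456 and 411 CPM to 94.4, 158, 276 and 248 CPM, a log2 fold change of -1.19 with a standard error of 0.27 and an edgeR adjusted p of 0.00173. Ppp1r15a, which encodes GADD34, the subunit that directs dephosphorylation of eIF2α, fell from 25.5, 25.2, 33.3 and 21.1 CPM to 12.6, 11.9, 15.7 and 11.4 CPM, a log2 fold change of -1.03 with a standard error of 0.22 and an edgeR adjusted p of 0.000971. Slc7a1, a cationic amino acid carrier gene, fell from 157, 172, 136 and 208 CPM to 36.3, 50.9, 119 and 80.6 CPM, a log2 fold change of -1.22 with a standard error of 0.26 and an edgeR adjusted p of 0.00123. Asns, Ppp1r15a and Slc7a1 did not overlap between the groups and passed with any 1 library left out. Atf4 overlapped, at 441, 616, 557 and 808 CPM and 445, 190.3, 279 and 208 CPM, and its log2 fold change of -1.12 (edgeR adjusted p = 0.0209) no longer passed without 2iL+SA+H replicate 4 or EpiLC+SA+H replicate 2 or 4 (-0.99 to -0.95, adjusted p = 0.0705 to 0.0772).

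ATF4 with a C/EBP partner binds the composite element TGATGNAA (N is any base), and promoters of this list were searched for it on both strands. It occurs in 1304 of 32851 RefSeq promoters (3.97%). Of 27 genes of the list that were matched by symbol, 7 had it in any of their promoters, a count of genes and not of promoters. Asns, Atf3, Trib3 and Nupr1 were lower in EpiLC+SA+H, and Chac1, Vldlr and Pycr1 did not pass. The promoters of the 4 genes that were lower are shown, with the match in capitals, which for Atf3, Trib3 and Nupr1 is read on the other strand. All 4 lie on the minus strand of GRCm38.p6, at chr6:7693160-7693459 (Asns), chr1:191183284-191183583 (Atf3), chr2:152344011-152344310 (Trib3) and chr7:126625421-126625720 (Nupr1).
Asns: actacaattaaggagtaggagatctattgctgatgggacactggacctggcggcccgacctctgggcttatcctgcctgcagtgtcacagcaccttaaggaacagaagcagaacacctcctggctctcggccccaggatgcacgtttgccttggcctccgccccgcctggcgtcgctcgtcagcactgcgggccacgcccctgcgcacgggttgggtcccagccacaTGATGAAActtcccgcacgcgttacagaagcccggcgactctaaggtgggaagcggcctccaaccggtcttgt
Atf3: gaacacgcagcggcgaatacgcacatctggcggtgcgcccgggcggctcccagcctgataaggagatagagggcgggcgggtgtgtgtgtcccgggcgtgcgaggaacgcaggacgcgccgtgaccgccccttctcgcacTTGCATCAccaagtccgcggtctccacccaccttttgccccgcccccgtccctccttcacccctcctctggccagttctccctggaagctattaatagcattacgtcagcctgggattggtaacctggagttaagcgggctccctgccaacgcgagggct
Trib3: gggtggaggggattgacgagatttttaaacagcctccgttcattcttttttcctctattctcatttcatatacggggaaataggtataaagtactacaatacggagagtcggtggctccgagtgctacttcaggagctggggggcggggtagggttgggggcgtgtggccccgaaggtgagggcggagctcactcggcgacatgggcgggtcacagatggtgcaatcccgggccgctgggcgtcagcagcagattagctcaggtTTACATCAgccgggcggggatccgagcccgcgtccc
Nupr1: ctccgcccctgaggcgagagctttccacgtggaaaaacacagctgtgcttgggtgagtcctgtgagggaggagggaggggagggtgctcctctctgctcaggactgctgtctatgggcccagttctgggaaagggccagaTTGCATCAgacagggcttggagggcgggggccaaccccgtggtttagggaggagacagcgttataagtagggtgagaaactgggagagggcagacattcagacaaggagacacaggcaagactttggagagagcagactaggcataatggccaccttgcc
The other 3 genes of this set were less firm than Asns. Atf3, which encodes a stress-induced factor, had 2.17, 5.24, 14.9 and 4.42 CPM and 1.45, 0.815, 2.64 and 0.947 CPM, and its log2 fold change of -2.21 was -1.45 (edgeR adjusted p = 0.0632) without 2iL+SA+H replicate 3, its highest library. Trib3, a pseudokinase gene, had 23.7, 45.4, 44.4 and 57.7 CPM and 25.2, 15.8, 27.3 and 12.6 CPM, and its log2 fold change of -1.10 no longer passed without 2iL+SA+H replicate 4 or EpiLC+SA+H replicate 2 or 4 (-1.001 to -0.92, adjusted p = 0.0678 to 0.0826). Nupr1, a small stress-induced chromatin protein gene, had 29.7, 75.7, 111 and 76.3 CPM and 9.68, 29.03, 40.2 and 20.4 CPM (log2 fold change -1.53). It no longer passed without 2iL+SA+H replicate 2, 3 or 4 or EpiLC+SA+H replicate 1, 2 or 4 (-1.60 to -1.26, adjusted p = 0.0617 to 0.112). Each of these 3 genes overlapped between the groups.

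Of 24 genes of the MYC family and cell cycle, 3 rose (Ccnd2, Myc and Mycn) and 3 fell (Ccnd3, Cdkn1b and E2f1), and of 16 p53 targets, 3 rose (Pmaip1, Eda2r and Bbc3) and 1 fell (Cdkn1a). Over all genes tested, 10.2% rose and 10.5% fell. Ccnd2, the cyclin D2 gene, rose from 4.67, 3.49, 3.29 and 6.43 CPM to 124, 28.1, 62.4 and 36.8 CPM, a log2 fold change of 3.81 with a standard error of 0.53 and an edgeR adjusted p of 9.03e-06. Ccnd3, the cyclin D3 gene, fell from 284, 326, 305 and 407 CPM to 248, 104, 133 and 145 CPM, a log2 fold change of -1.08 with a standard error of 0.23 and an edgeR adjusted p of 0.00123, and EpiLC+SA+H replicate 1 lay close to the naive libraries. Cdkn1a, which encodes the cell cycle inhibitor p21 (chromosome 17, 29090976 to 29100727), fell from 743, 695, 747 and 748 CPM to 155, 126, 224 and 126 CPM, a log2 fold change of -2.22 with a standard error of 0.25 and an edgeR adjusted p of 2.74e-07. Pmaip1, which encodes the death protein NOXA, rose from between 3.504 and 5.27 CPM to between 21.7 and 32.9 CPM, and Eda2r, a receptor gene, from between 19.9 and 32.9 CPM to between 35.3 and 61.2 CPM (log2 fold changes 2.68 and 0.87). Cdkn1a and Pmaip1 thus moved in opposite directions, and neither overlapped between the groups. Myc and Mycn did not pass without EpiLC+SA+H replicate 4 (2.40, adjusted p = 0.0515, and 1.02, adjusted p = 0.0612), so that 1 gene of its list then rose. Mycn was also lost without EpiLC+SA+H replicate 2 or 3 or 2iL+SA+H replicate 2, 3 or 4 (0.85 to 1.02, adjusted p = 0.0612 to 0.132). Cdkn1b, which encodes p27, and Bbc3, which encodes the death protein PUMA, each lost the call in several such fits, Cdkn1b without 2iL+SA+H replicate 3 or EpiLC+SA+H replicate 1 or 3 and Bbc3 without 2iL+SA+H replicate 2 or 4 or EpiLC+SA+H replicate 2, 3 or 4.

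**Figure D4:**
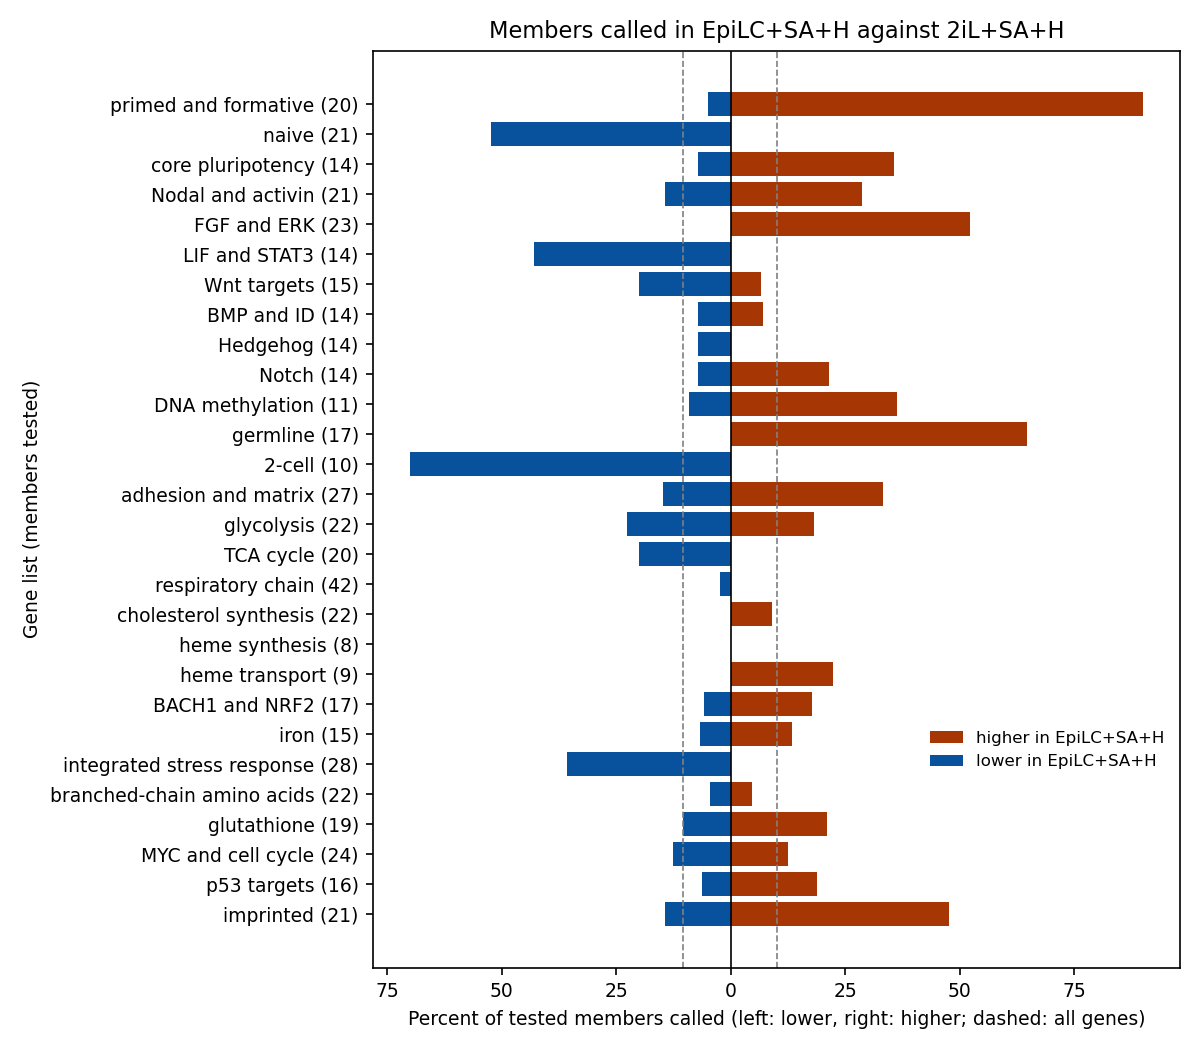
Percent of the tested members of each gene list that were higher (right, brown) or lower (left, blue) in EpiLC+SA+H than in 2iL+SA+H, with dashed lines at the shares of all genes tested, 10.2% and 10.5%. The primed list reaches 18 of 20 to the right, and the heme synthesis list has no bar. The 2-cell list reaches 7 of 10 to the left, a direction partly set by the filter on low counts. That filter also partly set the direction of the primed list and of the FGF and ERK list.

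The shares called were near or below those of all genes in both directions in the BMP, Hedgehog, respiratory chain, cholesterol, iron, branched-chain amino acid and MYC and cell cycle lists, whose counts are therefore not results about their members. In the BACH1 and NRF2, p53, Wnt and heme transport lists, the share called in either direction was near the 20.6% of all genes. Their counts are not results about their members either.

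Markers of other cell types were summed in each library. Summed CPM of the primitive endoderm list was 5.83 to 7.31 in 2iL+SA+H and 8.23 to 28.2 in EpiLC+SA+H, with 1 of 7 tested genes higher (Hnf4a). For trophectoderm it was 26.5 to 48.1 and 26.6 to 37.2 (2 of 8 higher, 2 lower), and for neuroectoderm 40.6 to 74.2 and 26.7 to 46.2 (1 of 4 higher, Pax6, and 1 lower, Nes). For mesendoderm it was 22.7 to 26.5 and 13.9 to 21.9 (1 of 5 lower, Gsc), and for fibroblasts 5.51 to 7.03 and 5.89 to 9.0 (1 of 4 higher, Dcn, and 1 lower, Fbn1). Dcn had 25 counts in EpiLC+SA+H and 0 in 2iL+SA+H, and its call was lost in most fits with 1 library left out. The primordial germ cell list, several members of which are also expressed by naive cells, had the highest sums, at 466 to 592 and 98.3 to 221 (3 of 9 higher, 4 lower, namely Tfap2c, Prdm14, Kit and Nanos3). Pax3, Neurog2, Fabp7, Lhx1 and Postn were at 0 counts in every EpiLC+SA+H library, and Sox7, Zic1, Fabp7, Dcn, Postn, Col6a1 and Col6a2 in every 2iL+SA+H library. The part of such cells in the results was not tested.

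The same transition was also measured without either agent. There 2405 genes rose (15.0%) and 2149 fell (13.4%) in EpiLC against 2iL. Over the 4554 genes called there, chosen on untreated values, log2 fold changes with SA and hemin had a slope of 0.730 on the untreated ones, with the same sign in 96.8% of genes. These are values across genes, which are not independent replicates, and the transitions share no library. The slope was 0.629 and the share 83.0% for SA alone. Both slopes are lowered by this choice of genes and by the error of the untreated values, even where transitions are alike. Neither slope therefore shows by itself a weaker transition. No gene passed the test of the difference between the hemin and the untreated transition (0 called by edgeR, 983 at an unadjusted p under 0.05, and 13 higher and 6 lower by DESeq2). Since such a difference has the error of 4 groups, this does not show that the transitions were equal. The difference was 1.30 (standard error 0.50) for Esrrb, which had log2 fold changes of -1.42 with SA and hemin and -2.72 without. It was 1.53 (standard error 0.50) for Nanog (-1.87 and -3.40). Otx2 had log2 fold changes of 4.91 with SA and hemin and 5.30 without, Fgf5 7.48 and 7.62, and Dnmt3a 4.44 and 4.78. In the untreated transition 18 of 20 primed genes rose and 16 of 21 naive genes fell, with medians of 3.53 and -2.57. Of the 28 stress response genes, 7 rose and 5 fell in the untreated transition, with a median of 0.25, and with SA alone 1 rose and 11 fell (21.0% of all genes tested fell there), with a median of -0.36. Asns, Slc7a1 and Ppp1r15a fell in the untreated transition too (log2 fold changes -1.02, -0.81 and -0.63). For Trib3 the untreated log2 fold change was 0.64 and for Atf3 0.36, and neither passed there, while with SA alone both fell (-1.07 and -3.72).

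Against the transition with SA alone, in which 2705 genes rose (16.8%) and 3369 fell (21.0%), 37.8% in all, the change with SA and hemin differed for many genes. The difference of the log2 fold changes was higher with hemin for 734 genes (4.57%) and lower for 283 (1.76%), together 6.33% of genes, at an adjusted p under 0.05 from edgeR. With SA alone 9 of 20 primed genes rose, with a median of 1.28, and for 6 of the 20 the change was higher with hemin. Otx2 rose by 2.88 with SA alone, a difference of 2.03 (standard error 0.47, edgeR adjusted p = 0.0102). Zic2 had -0.17 with SA alone and 2.00 with SA and hemin, a difference of 2.17 (standard error 0.41, edgeR adjusted p = 0.00194). Sall3 fell by 4.59 with SA alone, a difference of 2.72 (standard error 0.57, edgeR adjusted p = 0.00451), and Pou3f1 had 3.44, a difference of 2.40 (standard error 0.71, edgeR adjusted p = 0.0443). The call of Pou3f1 was lost in 10 of 16 fits with 1 library left out (1.77 to 2.47, adjusted p = 0.0557 to 0.0891). It was also lost without the 3 shallow libraries (1.61, adjusted p = 0.125). Of the 21 naive genes 13 fell with SA alone, with a median of -1.50. Klf2 had -1.92 with SA alone and Esrrb -1.13, differences of 0.55 (standard error 0.51, edgeR adjusted p = 0.578) and -0.30 (standard error 0.50, edgeR adjusted p = 0.785).

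For 6 of 21 Nodal and activin genes the change was higher with hemin (4.57% of all genes tested). With SA alone 8 of the 21 fell (21.0% of all genes tested). Lefty1 had a mean of 15.6 ± 8.13 CPM (SD, n = 4) in 2iL+SA and 5.603 ± 6.1 in EpiLC+SA, against 4.46 ± 2.82 in 2iL+SA+H and 89.9 ± 45.4 in EpiLC+SA+H. The difference of its log2 fold changes was 5.84 (standard error 1.10, edgeR adjusted p = 0.00237). Nodal had 70.9 ± 27.4 and 10.1 ± 9.22 CPM with SA, and 60.8 ± 4.37 and 73.9 ± 15.4 with SA and hemin, so that it fell with SA alone and stayed near its naive level with hemin. Its difference was 3.08 (standard error 0.51, edgeR adjusted p = 0.000665). Skil had a difference of 1.96 (standard error 0.32, edgeR adjusted p = 0.0004396) and did not pass with SA alone (log2 fold change -0.03). Slc16a3 had -0.67 with SA alone, a difference of 3.39 (standard error 0.70, edgeR adjusted p = 0.00473). Its naive levels differed too, with 74.3, 144, 278 and 137 CPM in 2iL+SA and 18.5, 12.9, 83.1 and 15.5 CPM in 2iL+SA+H. The primed ends had 81.1 to 118 CPM in EpiLC+SA and 112 to 443 CPM in EpiLC+SA+H. The difference therefore does not come from the primed end alone. Mycn, a MYC family gene, fell by 2.10 with SA alone and rose by 1.01 with SA and hemin, a difference of 3.11 (standard error 0.53, edgeR adjusted p = 0.000738).

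The genes with the smallest adjusted p values of this difference were next compared across the 3 transitions. Hs6st1, a heparan sulfate sulfotransferase gene (chromosome 1, 36068400 to 36106446), had 125, 133, 160.2 and 138 CPM in 2iL+SA+H and 43.1, 49.9, 61.1 and 57.4 CPM in EpiLC+SA+H, and 147 ± 31.6 and 8.88 ± 0.9604 CPM (SD, n = 4) in 2iL+SA and EpiLC+SA. Its log2 fold change was -1.39 with SA and hemin, -1.40 without either and -4.05 with SA, a difference of 2.66 (standard error 0.25, edgeR adjusted p = 6.70e-07). Pcf11, a gene of pre-mRNA cleavage and transcription termination, had 113, 121, 127 and 125 CPM and 91.5, 98.02, 95.3 and 82.5 CPM, and 142 ± 18.5 and 17.7 ± 4.25 CPM with SA alone, a difference of 2.60 (standard error 0.25, edgeR adjusted p = 6.70e-07), and an untreated log2 fold change of -0.33. Klf13, a Krüppel-like factor gene, had log2 fold changes of 0.06 with SA and hemin, -0.06 without and -2.40 with SA. Rbbp6, a ubiquitin ligase gene of the 3′ processing complex, had 0.19, 0.38 and -1.90, and Srxn1, which encodes sulfiredoxin, had -0.29, -0.23 and -2.59. All 5 of these genes fell with SA alone, and of them Hs6st1 also fell with SA and hemin. L1td1, an RNA-binding protein gene derived from a retrotransposon, rose from 414, 327, 424 and 354 CPM to 1185, 599.5, 671 and 632 CPM with SA and hemin (log2 fold change 1.02, and 0.69 untreated) and fell by 2.03 with SA alone. Bach1 had 0.04 with SA and hemin and 0.22 without either, and fell by 2.17 with SA alone, a difference of 2.21 (standard error 0.47, edgeR adjusted p = 0.00487). Lrrc14 and the noncoding RNA gene Mirg complete the genes with the smallest p on this side, at differences of 3.07 and 3.01. Lrrc14 had -0.57 with SA and hemin and -0.35 without either. Mirg fell with SA and hemin (-1.06) and had 0.14 without either, where it did not pass.

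In the other direction, Cox20, an assembly factor gene of cytochrome oxidase (chromosome 1, 178319130 to 178322693), had 34.4, 29.8, 32.2 and 22.3 CPM in 2iL+SA+H and 13.1, 11.3, 14.4 and 14.1 CPM in EpiLC+SA+H, and 26.2 ± 6.36 and 49.1 ± 5.88 CPM (SD, n = 4) in 2iL+SA and EpiLC+SA. With SA and hemin Cox20 therefore fell by 1.16 on the log2 scale, and it rose by 0.88 with SA alone, a difference of -2.05 (standard error 0.29, edgeR adjusted p = 8.65e-05), and had -1.36 untreated. Car13, a cytosolic carbonic anhydrase gene, fell by 1.11 with SA and hemin and had -1.95 without either and 0.48 with SA alone, a difference of -1.59 (standard error 0.30, edgeR adjusted p = 0.00186). Ybx1, which encodes an abundant RNA-binding protein, had 0.27 with SA and hemin, 0.28 without and 1.35 with SA alone, and Cfl1, the gene of the actin-severing protein cofilin, had -0.30, -0.31 and 1.02. Ip6k2, an inositol hexakisphosphate kinase gene, had 0.00, 0.34 and 1.67. The differences of Ybx1, Cfl1 and Ip6k2 were -1.08, -1.32 and -1.67. Lyrm9, Ctc1, a telomere maintenance gene, and 9430008C03Rik had differences of -1.58, -1.08 and -1.46, and each rose with SA alone and did not pass with SA and hemin. Lyrm9 also rose untreated (1.16, against 0.41 with SA and hemin), and Ctc1 and 9430008C03Rik had 0.13 and -0.25 there and did not pass.

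**Figure D5:**
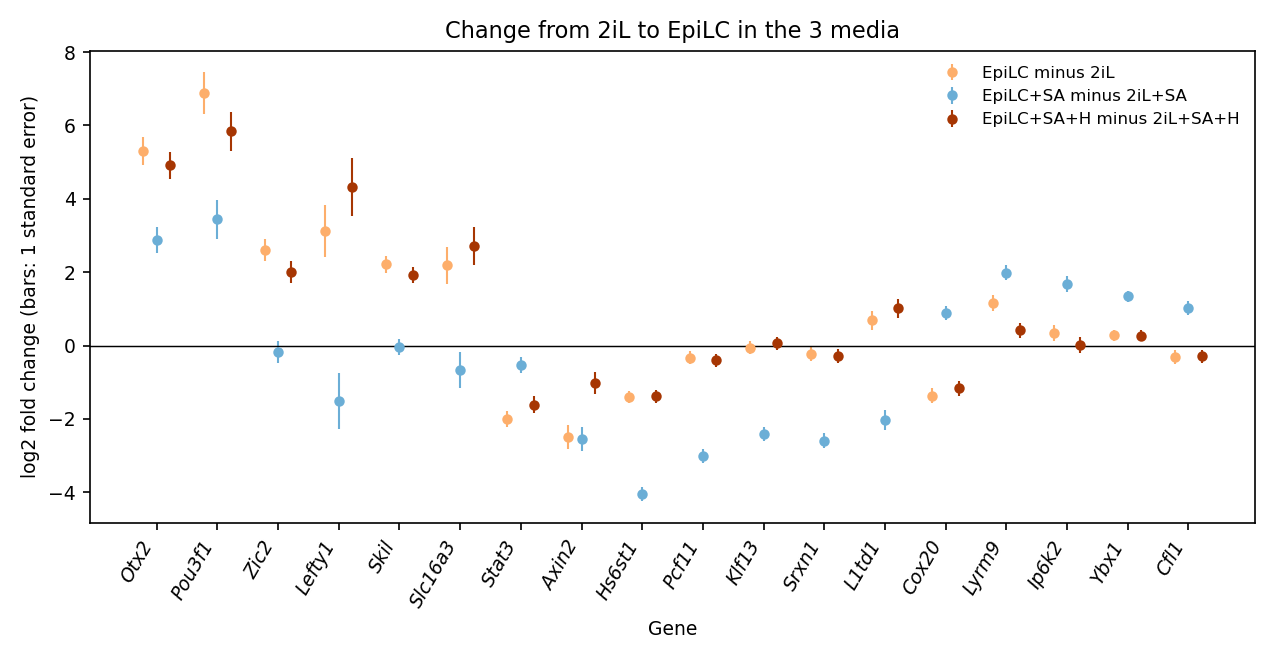
Log2 fold change from 2iL to EpiLC (bars: 1 standard error) for 18 genes in 3 media, neither agent (light orange), SA (light blue) and SA with hemin (brown). For Hs6st1 the values are -1.40, -4.05 and -1.39, and for Pcf11, Klf13 and Srxn1 the SA value also lies far below the other 2.

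Within EpiLC+SA+H, 5 genes called in the transition with a mean of 50 CPM or more had the widest range between libraries. Txnip, which encodes a thioredoxin inhibitor that responds to glucose, had 91.3, 56.2, 183 and 20.9 CPM in 2iL+SA+H and 73.1, 358, 527 and 1116 CPM in EpiLC+SA+H, a range of 15.3-fold within the latter. The groups overlapped, and its log2 fold change of 2.56 (edgeR adjusted p = 0.0208) no longer passed without 2iL+SA+H replicate 1, 2 or 4 or EpiLC+SA+H replicate 4 (1.87 to 2.58, adjusted p = 0.0528 to 0.0951). Lefty2, a second Nodal inhibitor gene, had 33.9, 7.85, 56.7 and 4.82 CPM and 159, 228, 364 and 29.4 CPM, with EpiLC+SA+H replicate 4 inside the naive range. Its log2 fold change of 2.91 no longer passed without 2iL+SA+H replicate 1, 2 or 4 or EpiLC+SA+H replicate 2 or 3 (2.41 to 3.06, adjusted p = 0.0564 to 0.0916), nor without the 3 shallow libraries (2.99, adjusted p = 0.0505). Tcf15, a basic helix-loop-helix gene of cells primed to differentiate, had 18.4, 13.7, 14.8 and 17.9 CPM and 358, 43.1, 85.7 and 85.6 CPM, with replicate 1 the highest (log2 fold change 3.13). Cgnl1, a tight junction gene, went from between 2.504 and 5.67 CPM to 116, 44.4, 18 and 70.1 CPM (log2 fold change 3.73), and Pou3f1 was the fifth gene. Replicate 1 was the highest EpiLC+SA+H library for Tcf15, Cgnl1 and Pou3f1 and the lowest for Txnip.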

How the data were processed

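Libraries were made by the authors with a 3′ kit (Lexogen QuantSeq), sequenced single-end, checked with FastQC 0.11.7, aligned with HISAT2 to mm10 and counted with HTSeq (2.7.14 in the submitters' notes), with SAMtools 1.5 and reads of several loci discarded. The deposited values are raw counts per gene symbol. The annotation and strand setting of the count are not given in the sources used here. Counts of 24 libraries in 6 groups were fitted together with edgeR 4.0.16 (quasi-likelihood test, TMM, filterByExpr at a minimum count of 5, limma 3.58.1, R 4.3.3), with Benjamini-Hochberg adjustment over 16067 genes. DESeq2 1.42.0 was an alternative. CPM follow TMM scaling, with a prior count of 2 on the log2 scale. Coordinates are of GENCODE vM21 (GRCm38).

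The gene lists and the rule for named genes were chosen with earlier results of these data known. The lists share members, such as Tfcp2l1 (naive, LIF and STAT3), Fgf5 (FGF and ERK, primed), Dnmt3a (primed, DNA methylation) and Slc40a1 (BACH1 and NRF2, iron). Their counts are therefore not independent. Named are the markers, up to 4 genes per list with the smallest adjusted p, the 10 largest changes per direction among genes of 20 CPM or more without overlap, the 8 smallest p per direction of a difference between transitions, and the 5 widest ranges within EpiLC+SA+H. Sall3, Tead2, Zfp42, Pou5f1, Nodal, Alad, Hmox1, Bach1, Atf4, Trib3, Nupr1, Mycn and the members of counts of 5 or fewer were added after their values were seen. Some genes that the rule picks are not reported here. Alternatives were DESeq2, its size factors in edgeR, no filter, a minimum count of 20, a fit of the compared groups alone, a replicate block, each library left out in turn and the 3 shallow libraries left out. List counts under these were added after seeing the data. Same-numbered libraries of the compared groups did not deviate together (correlations -0.33 to 0.02), so they were not treated as pairs. Intervals of ratios cover counting error only.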

Additional observations from a re-analysis of the deposited data

Results flagged for a closer look

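In 21 of 304 gene and group pairs, the highest or lowest of the 4 libraries lay far from the others by Dixon's test at the 95% level, which chance gives in about 1 of 20 groups. For Fgf5, H19, Hand1, Hhip and Tlx2 the other libraries of the flagged group had 0 counts. Any count in the remaining library is then flagged, so these flags say nothing about that library. Hmox1, the heme oxygenase gene, had 94.4 CPM in EpiLC+SA+H replicate 1 against 11.6 to 13.2 in the other libraries of its group, and the same library had 383 CPM of Pgrmc2 and 1185 CPM of L1td1. It was low in Slc39a14 (11.1 CPM), Gstm5 (5.33 CPM), Bbc3 (51.8 CPM) and Fbn1 (0 CPM). Elsewhere in EpiLC+SA+H, replicate 2 was low in Pcsk6 (16.8 CPM), replicate 3 was high in Hhip (0.776 CPM), and replicate 4 was high in Pdk1 (283 CPM) and Tlx2 (0.2104 CPM).

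In 2iL+SA+H, replicate 1 was high in Dnmt3b (49.7 CPM) and Axin2 (23.4 CPM) and low in Bmp7 (8.18 CPM). Replicate 2 was low in Cdkn1a (695 CPM) and was the library with counts of H19 (0.545 CPM). Replicate 3 was high in Slc39a14 (1.58 CPM) and Hand1 (0.264 CPM) and low in Gss (39.1 CPM). Replicate 4 was high in Fgf5 (0.402 CPM) and low in Podxl (2.41 CPM).

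For 33 of the genes named in the text, some of them picked for the smallest p of this test (1017 of all genes tested passed it), the log2 fold change of the transition with SA and hemin differed from that with SA alone by edgeR's interaction test at an adjusted p under 0.05. Higher with hemin were the primed and core genes Otx2 (2.03), Pou3f1 (2.40), Zic2 (2.17), Sall3 (2.72) and Sall4 (0.87), and the signalling genes Lefty1 (5.84), Nodal (3.08), Skil (1.96) and Axin2 (1.52). Also higher were Slc16a3 (3.39), Mycn (3.11), Bach1 (2.21), Lrrc14 (3.07), L1td1 (3.05), Mirg (3.01), Hs6st1 (2.66), Pcf11 (2.60), Klf13 (2.46), Srxn1 (2.31) and Rbbp6 (2.09). Lower with hemin were Cox20 (-2.05), Ip6k2 (-1.67), Car13 (-1.59), Lyrm9 (-1.58), 9430008C03Rik (-1.46), Ccnd3 (-1.32), Cfl1 (-1.32), Stat3 (-1.09), Ctc1 (-1.08), Ybx1 (-1.08), Uhrf1 (-0.996), Gpx1 (-0.84) and Bcat1 (-0.78). With any 1 library left out 26 of the 33 still passed. The exceptions were Pou3f1, Sall4, Stat3, Axin2, Uhrf1, Bcat1 and Gpx1.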

How the results depend on the processing

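Counts of genes called in the transition with SA and hemin stayed within 1.5 times of 1631 and 1683 under every alternative run (2013 higher and 1781 lower with DESeq2, 2162 and 2180 without the 3 shallow libraries, 1571 and 1681 with a replicate block, 1307 to 1632 and 1274 to 1519 with 1 library left out). DESeq2 shared 3279 of the 3314 calls. Counts of the difference from the untreated transition were 13 higher and 6 lower with DESeq2, 3 and 2 without the shallow libraries, 1 higher at a minimum count of 20, and 0 to 1 higher with 1 library left out. Counts of the difference from the transition with SA were 1181 and 516 with DESeq2 and 1272 and 811 without the shallow libraries. With 1 library left out they were 502 to 945 higher and 137 to 304 lower, with the lower count at 182 without 2iL+SA replicate 2, 184, 148 and 183 without 2iL+SA+H replicates 1, 2 and 4, and 173 and 137 without EpiLC+SA replicates 3 and 4. The naive difference on the axis, -0.0018, changed sign to 0.0372 without the shallow libraries and ranged from -0.0284 to 0.0488 with 1 library left out. The cause of these changes was not tested.

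Of 136 named genes in the transition with SA and hemin, 109 kept direction and call with any 1 library left out and 134 with the block, which took the call from Lss and turned Bach1, a gene that did not pass. It also took the call from 1 of 33 differences, that of Pou3f1. Genes that changed direction did not pass the test in any of these fits. Tead2 was -0.0737 without the shallow libraries and -0.0623 to 0.40 with 1 library left out, Pou5f1 was -0.52 to 1.81 with 1 library left out, and Hmox1 was -0.57 without the shallow libraries and -0.56 to 1.07 with 1 library left out. Bach1 was -0.0270 with the block, -0.0240 without the shallow libraries and -0.0781 to 0.22 with 1 library left out. With DESeq2 scaling the median log2 fold change of all genes was 0.049, against 0.012 in the main fit. Depth limits genes with few counts in a group, such as Fgf5, Car4 and Tlx2, whose ratios have wide intervals.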
